A study of Homo sapiens with 24 samples.

Results

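The plasminogen activation system is the set of proteases, receptors and inhibitors that generate and restrain plasmin, a protease that degrades fibrin and extracellular matrix. Here, 7 of its genes were followed, of 31204 named genes on the arrays (long noncoding RNA loci included), namely *PLAU*, *PLAT*, *PLAUR*, *PLG*, *SERPINE2*, *SERPINB2* and *SERPINF2*. The genes were given as a list, and their probes were those whose RefSeq accession belongs to them, 8 probes in all, with 2 for *PLAU* and 1 for each of the other genes. Total RNA was measured on 24 Agilent SurePrint G3 arrays in 1 colour, from PLC/PRF/5 and SNU-449, established cell lines derived from human hepatocellular carcinoma (HCC). There were 4 treatments per line with 3 independent cultures for each, which were no agent (control), recombinant human TGFβ1 at 1 ng/mL, galunisertib at 10 µM, and both agents. All cultures, the controls included, were serum-starved overnight, and RNA was taken after 16 h of treatment. Galunisertib (LY2157299) inhibits the kinase of the type I TGFβ receptor, and each HCC subtype is modelled here by a single line.

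Plasminogen, encoded by *PLG*, is a zymogen made mainly by hepatocytes. It is cut into plasmin by urokinase, encoded by *PLAU*, or by tissue plasminogen activator, encoded by *PLAT*, and the urokinase receptor, encoded by *PLAUR*, holds urokinase at the cell surface. *SERPINE2* encodes protease nexin-1, a matrix-bound inhibitor of urokinase, plasmin and thrombin, and *SERPINB2* encodes an inhibitor of urokinase that is largely intracellular. *SERPINF2* encodes α2-antiplasmin, the main circulating inhibitor of plasmin, which is secreted by the liver. In the human genome (GRCh38.p14), *PLAU* lies at chr10:73908832-73917494, *PLAUR* at chr19:43646095-43670169, *SERPINE2* at chr2:223975045-224039286 and *SERPINF2* at chr17:1742871-1755265. TGFβ acts on its targets through SMAD proteins, which bind short CAGAC elements and often work beside AP-1 factors, which bind TGANTCA.

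The promoter windows of *PLAU* and *SERPINE2*, the members that moved with TGFβ, are shown first, followed by that of *PLAUR*, which moved with galunisertib in PLC/PRF/5. Each window runs from 250 bases before to 50 bases after a transcription start in RefSeq (GRCh38.p14) and is written in the direction of transcription. Capitals mark CAGAC or TGANTCA on either strand.
*PLAU*, upstream start, chr10:73910360-73910659, plus strand: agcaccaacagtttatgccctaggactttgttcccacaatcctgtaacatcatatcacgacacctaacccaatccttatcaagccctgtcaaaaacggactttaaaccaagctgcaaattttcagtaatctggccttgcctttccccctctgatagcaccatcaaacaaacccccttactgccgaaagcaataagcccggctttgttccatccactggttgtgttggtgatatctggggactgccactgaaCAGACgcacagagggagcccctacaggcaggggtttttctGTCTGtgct
*PLAU*, downstream start, chr10:73910882-73911181, plus strand: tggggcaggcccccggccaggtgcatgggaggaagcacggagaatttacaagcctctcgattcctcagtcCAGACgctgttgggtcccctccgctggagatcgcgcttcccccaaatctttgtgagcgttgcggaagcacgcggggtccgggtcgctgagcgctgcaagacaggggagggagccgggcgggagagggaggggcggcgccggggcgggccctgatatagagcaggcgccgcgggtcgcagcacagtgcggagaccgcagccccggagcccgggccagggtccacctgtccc
*SERPINE2*, downstream start, chr2:224031429-224031728, minus strand: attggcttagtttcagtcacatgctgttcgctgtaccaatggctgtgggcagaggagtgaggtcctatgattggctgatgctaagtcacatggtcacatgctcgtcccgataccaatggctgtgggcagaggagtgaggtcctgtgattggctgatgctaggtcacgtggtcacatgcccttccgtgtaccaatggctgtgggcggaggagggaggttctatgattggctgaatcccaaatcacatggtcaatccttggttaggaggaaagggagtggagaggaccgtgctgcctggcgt
*SERPINE2*, upstream start, chr2:224038591-224038890, minus strand: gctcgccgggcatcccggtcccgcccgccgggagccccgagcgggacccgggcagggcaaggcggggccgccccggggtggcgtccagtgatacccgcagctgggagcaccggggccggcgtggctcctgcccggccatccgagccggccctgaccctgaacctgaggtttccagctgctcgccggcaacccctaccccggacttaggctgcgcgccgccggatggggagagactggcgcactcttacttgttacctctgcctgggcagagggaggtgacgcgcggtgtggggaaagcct
*PLAUR*, chr19:43670120-43670419, minus strand: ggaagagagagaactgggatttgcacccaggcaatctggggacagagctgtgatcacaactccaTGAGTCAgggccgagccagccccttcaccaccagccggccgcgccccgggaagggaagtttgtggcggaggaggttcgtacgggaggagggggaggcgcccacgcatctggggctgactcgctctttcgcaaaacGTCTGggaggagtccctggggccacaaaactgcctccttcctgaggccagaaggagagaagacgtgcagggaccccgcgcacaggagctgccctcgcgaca
The upstream *PLAU* window held CAGAC 2 times, starting at bases 2 and 42 of the transcript, and the downstream window held it 1 time, starting 180 bases before the transcript. Neither *SERPINE2* window held CAGAC or TGANTCA. The *PLAUR* window held each of them 1 time, TGANTCA starting 186 bases and CAGAC starting 51 bases before the transcript. Of 35116 windows of this length in the RefSeq table, 45.3% held CAGAC and 7.71% held TGANTCA, and no printed match overlapped another. The matches describe these letters in these windows and were not related to binding.

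Each array's intensity was divided by its 75th percentile, which lay between 145 and 262 intensity units, and levels are given below as log2 of that ratio. A floor was applied at 5.70% of that percentile (log2 of -4.13), and values at the floor have no order. Between 43.8% and 51.4% of the spots of an array were well above background (43.8% to 44.6% with galunisertib and 47.1% to 47.9% with TGFβ in SNU-449), and the lowest 75th percentile was that of replicate 1 of the PLC/PRF/5 controls, whose weakest spot above background lay at -3.47. Of 6 hepatocyte markers, all 6 were well above background on all 12 arrays of PLC/PRF/5, whereas in SNU-449 only *TTR* was, and 4 were well above background on none. Of 4 mesenchymal markers, all 4 were well above background on all SNU-449 arrays and 3 on all PLC/PRF/5 arrays, where *COL1A1* was not on any. Of the leukocyte and endothelial markers, *PECAM1* was well above background on none of the 24 arrays, while *PTPRC* was on 12 of 12 in PLC/PRF/5 and 11 of 12 in SNU-449, at levels between -3.66 and -2.31, and *CDH5* on 8 and 5. All arrays with TGFβ sat in the second row of their slide and those without it in the first, and each group had the same place on each of the 3 slides, so neither row nor position can be told apart from treatment.

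The genes of the system differed widely between the untreated lines. Both activators, the receptor and *SERPINE2* were higher in SNU-449, whereas *SERPINF2* was well above background only in PLC/PRF/5. Calls required a change of more than 2-fold together with an unadjusted limma P below 0.001, and adjusted p-values are Benjamini-Hochberg values over all genes tested. Between the control cells, 34.3% of 17902 genes were called, and among the members all 5 tested were, so calling alone does not single them out. Of these, *SERPINF2* entered the test only through PLC/PRF/5, which fixed its direction, so its call carries no weight. In bulk RNA, fewer cells of a type and less RNA per cell cannot be told apart.

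*PLAU* showed the largest of these member differences. It stood at 5.20, 5.35 and 5.44 in SNU-449 controls and at -2.08, -2.08 and -2.44 in PLC/PRF/5 controls, a difference of -7.53 (standard error 0.14, adjusted p = 5.4e-20). Its other probe, designed on another transcript, was well above background on no PLC/PRF/5 array and was at least 16.5-fold higher in SNU-449. *PLAT*, the other activator, stood at 1.42, 1.65 and 1.66 in SNU-449 and at -3.49, -3.75 and -3.46 in PLC/PRF/5, where replicate 1 was not well above background. The *PLAT* difference was -5.14 (standard error 0.11, adjusted p = 9.4e-19). *PLAUR* was likewise higher in SNU-449, at 1.00, 0.54 and 0.74 against -2.88, -3.56 and -3.28, a difference of -4.00 (standard error 0.23, adjusted p = 5.8e-12). With normexp, the spot medians were background-corrected in place of the deposited correction, and an offset of 50 was added, which shrinks differences of dim probes. The differences of *PLAT* and *PLAUR* were then -2.99 and -2.19 and still called.

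The inhibitors did not follow 1 direction. *SERPINE2* was the member measured at a clear level in both lines, with 4.01, 4.14 and 4.30 in SNU-449 controls and 1.81, 1.98 and 1.98 in PLC/PRF/5 controls, a difference of -2.23 (standard error 0.10, adjusted p = 8.0e-14). *SERPINF2* stood at -0.79, -0.81 and -0.70 in PLC/PRF/5 controls and was not well above background in any of the SNU-449 controls. The SNU-449 controls were set to the floor and so have no spread, and no p-value is given. As a lower bound, the PLC/PRF/5 level was higher by at least 10.3-fold. This bound depends on the floor and the background correction, the log2 difference being 3.37 as fitted, 2.37 with a floor of double the height and 1.47 in normexp. *SERPINB2* and *PLG* were well above background on none of the 24 arrays and were not tested. *PLG* was thus not measured in PLC/PRF/5 either, where all 6 hepatocyte markers were. The plot of levels by culture shows the 6 probes above background in at least 1 group.

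**Figure D1:**
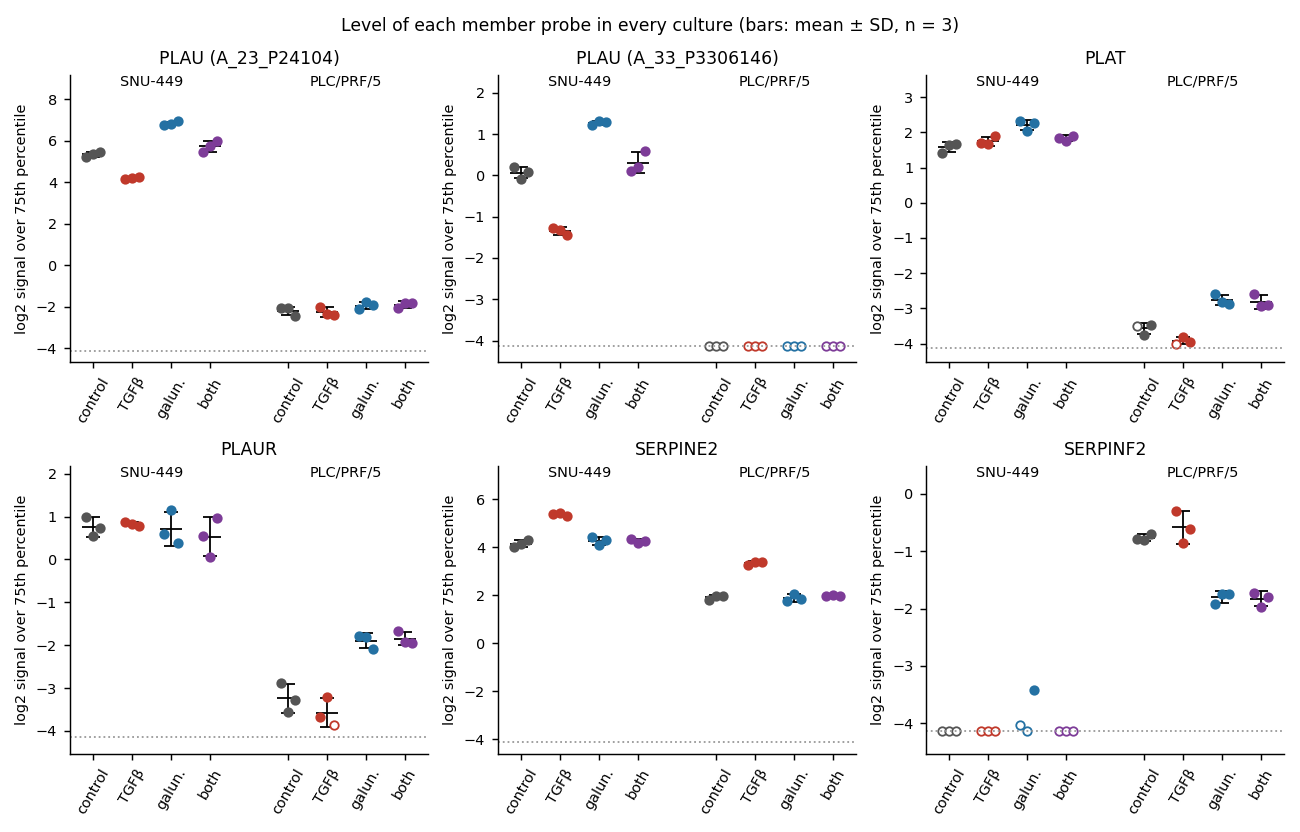
Level of 6 member probes in each culture, as log2 signal over the 75th percentile of the array (y axis), by line and treatment (x axis; galun., galunisertib; both, TGFβ and galunisertib). Points are cultures, open where the spot was not well above background; bars are the mean ± SD of 3 cultures, left out where a culture sat at the floor (dotted line at -4.13). PLAU was called in SNU-449 and not in PLC/PRF/5, SERPINE2 rose with TGFβ in each line, and PLAUR and SERPINF2 moved with galunisertib in PLC/PRF/5.

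In SNU-449, the activator *PLAU* fell with TGFβ and rose with galunisertib. Its level was 4.17, 4.18 and 4.23 with TGFβ, below all 3 control cultures, and 6.75, 6.79 and 6.93 with galunisertib, above all of them. TGFβ changed *PLAU* by -1.14 (standard error 0.13, adjusted p = 0.00031), a 2.20-fold fall, in a comparison in which 2.33% of 16101 genes were called. Galunisertib alone changed it by 1.49 (standard error 0.13, adjusted p = 0.00031), a 2.81-fold rise, with 1.14% of genes called. Both comparisons share the control cultures, and the array-by-array differences within a slide ran from -1.22 to -1.03 for TGFβ and from 1.43 to 1.55 for galunisertib. With normexp background correction the TGFβ change was -0.86 and no longer past the fold threshold.

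With both agents, *PLAU* in SNU-449 stood at 5.47, 5.74 and 6.0. On this probe the combined cultures lay above every control culture and below every culture with galunisertib alone. Galunisertib added to TGFβ changed *PLAU* by 1.54 (standard error 0.13, adjusted p = 2.7e-05), with 3.81% of genes called. TGFβ added to galunisertib changed it by -1.09 (standard error 0.13, adjusted p = 0.0034), with 0.702% of genes called. This last call was lost without replicate 1 of the combined group, at -0.95, in normexp, at -0.78, and in the methods' t-test, run here without the random variance model that the methods pair it with. The TGFβ step had the same sign without and with the inhibitor, and the interaction, the step with galunisertib minus the step without, was 0.05 (95% interval -0.35 to 0.45, adjusted p = 0.91). The other *PLAU* probe gave -1.42 for TGFβ, 1.21 for galunisertib and 1.66 for galunisertib added to TGFβ, all called, and -0.97 for TGFβ added to galunisertib, which did not reach the fold threshold. Its combined cultures stood at 0.12, 0.21 and 0.60 and overlapped the controls, at 0.20, -0.07 and 0.09. On that probe the interaction was 0.45 (standard error 0.19, adjusted p = 0.27).

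*SERPINE2*, the matrix-bound inhibitor, behaved differently. In SNU-449 it stood at 5.37, 5.44 and 5.32 with TGFβ, above every other culture of the line, at 4.41, 4.08 and 4.31 with galunisertib, and at 4.36, 4.16 and 4.25 with both. TGFβ raised it by 1.23 (standard error 0.11, adjusted p = 8.7e-05), a 2.34-fold rise, and galunisertib added to TGFβ lowered it again, with a change of -1.12 (standard error 0.11, adjusted p = 8.6e-05). Galunisertib alone gave 0.12 (95% interval -0.13 to 0.36), and TGFβ added to galunisertib gave -0.01 (95% interval -0.25 to 0.24), and those groups overlapped. The interaction was -1.24 (standard error 0.16, adjusted p = 0.0025) and was called, with 1.36% of genes called.

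The other tested members moved little in SNU-449. *PLAT* stood at 2.31, 2.04 and 2.25 with galunisertib alone, above all controls, and the 1.54-fold change (0.62, standard error 0.11, adjusted p = 0.0090) was short of the fold threshold. With both agents *PLAT* stood at 1.84, 1.76 and 1.91, and the step of TGFβ added to galunisertib was -0.36 (adjusted p = 0.13). *PLAUR* overlapped between all 4 groups, whose means lay between 0.53 and 0.83, and the widest of its changes within the line, galunisertib added to TGFβ, was -0.30 (95% interval -0.84 to 0.24). The spread of *PLAUR* was also wide, with an SD of 0.46 in the combined group. *SERPINF2* was well above background on 1 of 12 SNU-449 arrays, replicate 3 with galunisertib, at -3.42 or 9.31% of the 75th percentile. The other SNU-449 cultures with galunisertib read 6.12% and 4.31%, the controls 1.67%, 3.12% and 1.71%, and none of these was well above background, so *SERPINF2* was not tested in this line.

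**Figure D2:**
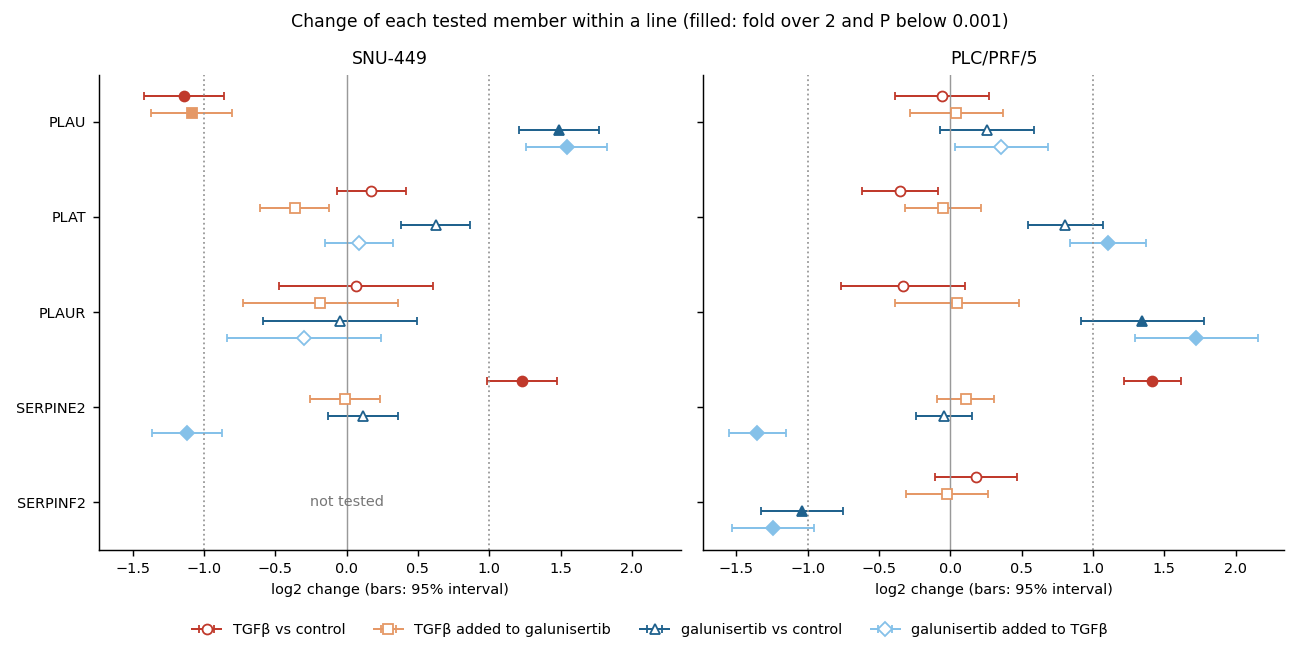
Log2 change (x axis) of the tested members in the 4 comparisons between groups of a line, with 95% intervals from limma; filled symbols passed a fold change of 2 (dotted lines at -1 and 1) and an unadjusted P below 0.001. In SNU-449 the called changes are those of PLAU and SERPINE2; in PLC/PRF/5 the SERPINE2 changes stand beside rises of PLAUR and falls of SERPINF2 with galunisertib, and a rise of PLAT where it was added to TGFβ.

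In PLC/PRF/5, *SERPINE2* was the only tested member called with TGFβ. It stood at 3.25, 3.40 and 3.37 with TGFβ, above every other culture of the line, at 1.76, 2.05 and 1.83 with galunisertib, and at 1.98, 2.01 and 1.98 with both. TGFβ raised it by 1.42 (standard error 0.09, adjusted p = 6.8e-06), a 2.67-fold rise, in a comparison with 1.1% of 16684 genes called. Galunisertib added to TGFβ changed it by -1.35 (standard error 0.09, adjusted p = 3.6e-06), with 3.09% of genes called. TGFβ added to galunisertib left 0.11 (95% interval -0.09 to 0.31), in a comparison with 0.294% of genes and none of the 5 tested members called. At an unadjusted P below 0.05, none of the 5 passed there either, and the methods' t-test called none. The interaction of *SERPINE2* was -1.31 (standard error 0.13, adjusted p = 0.00041), with 1.19% of genes called.

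Galunisertib alone raised the receptor gene *PLAUR* and lowered *SERPINF2* in PLC/PRF/5, with 0.342% of genes called. *PLAUR* stood at -1.79, -1.80 and -2.09, above all 3 controls, a change of 1.35 (standard error 0.20, adjusted p = 0.0050) or 2.54-fold. *SERPINF2*, the plasmin inhibitor, stood at -1.93, -1.74 and -1.75, below all 3 controls, a change of -1.04 (standard error 0.13, adjusted p = 0.0030) or a 2.05-fold fall. The *SERPINF2* fall lay close to the fold threshold, at -0.94 when arrays were scaled to their median, -0.98 without scaling, -0.98 without replicate 1 of the galunisertib group and -0.55 in normexp, and was then not called. The *PLAUR* rise, in signals near background, was 0.45 in normexp and was not called there or in the methods' t-test. *PLAT* stood at -2.60, -2.81 and -2.86, above all controls, a 1.75-fold change (0.81, standard error 0.12, adjusted p = 0.0055) short of the fold threshold. Of the hepatocyte markers in this comparison, *ALB* changed by -0.97 (adjusted p = 0.0064) and *TTR* by -0.69 (adjusted p = 0.0055), neither of them called, and the other 4 by -0.48 to -0.01 with adjusted p-values of 0.10 or more. Their part in the *SERPINF2* result was not tested.

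*PLAUR*, *SERPINF2* and *PLAT* moved in the same directions where galunisertib was added to TGFβ in PLC/PRF/5. With *SERPINE2*, given above, 4 of the 5 tested members were called there, beside 3.09% of all genes tested. *PLAUR* stood at -3.66, -3.20 and -3.85 with TGFβ, replicate 3 not well above background, and at -1.68, -1.91 and -1.96 with both, a change of 1.72 (standard error 0.20, adjusted p = 0.00010). *SERPINF2* stood at -0.29, -0.85 and -0.61 with TGFβ and at -1.72, -1.97 and -1.79 with both, a change of -1.24 (standard error 0.13, adjusted p = 6.5e-05). *PLAT* stood at -4.01, -3.81 and -3.94 with TGFβ, replicate 1 not well above background, and at -2.59, -2.94 and -2.90 with both, a change of 1.11 (standard error 0.12, adjusted p = 7.8e-05). None of these groups overlapped. In normexp the 3 changes were 0.60, -0.78 and 0.31 and not called, and the methods' t-test did not call those of *PLAUR* and *SERPINF2*. Of the hepatocyte markers, whose part was not tested, *APOA2* rose by 1.03 and was called, *APOB*, *ALB* and *TTR* changed by 0.76, 0.49 and 0.27, and *TF* and *HNF4A* by -0.22 and -0.67. The *PLAT* change rests on signals just above the floor, being 0.32 with a floor of double the height, and it was 0.998 without replicate 1 of the combined group. *PLAU* in PLC/PRF/5 stayed between -2.44 and -1.77 on all 12 arrays, and no change of it was called, the widest being 0.36 (95% interval 0.03 to 0.69, adjusted p = 0.081) for galunisertib added to TGFβ.

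TGFβ by itself gave no call for *PLAUR*, *PLAT* or *SERPINF2* where they were tested. In SNU-449 its change was 0.07 (95% interval -0.47 to 0.61) for *PLAUR* and 0.17 (95% interval -0.07 to 0.41) for *PLAT*. In PLC/PRF/5 its change was -0.33 (95% interval -0.77 to 0.10) for *PLAUR*, -0.35 (95% interval -0.62 to -0.09, adjusted p = 0.080) for *PLAT* and 0.18 (95% interval -0.11 to 0.47) for *SERPINF2*. Their interactions in PLC/PRF/5 were 0.38, 0.30 and -0.20, with adjusted p-values from 0.29 to 0.52, and none was called. In SNU-449 the interaction was -0.25 (95% interval -1.02 to 0.52) for *PLAUR* and -0.54 (95% interval -0.88 to -0.20, adjusted p = 0.11) for *PLAT*, neither of them called.

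**Figure D3:**
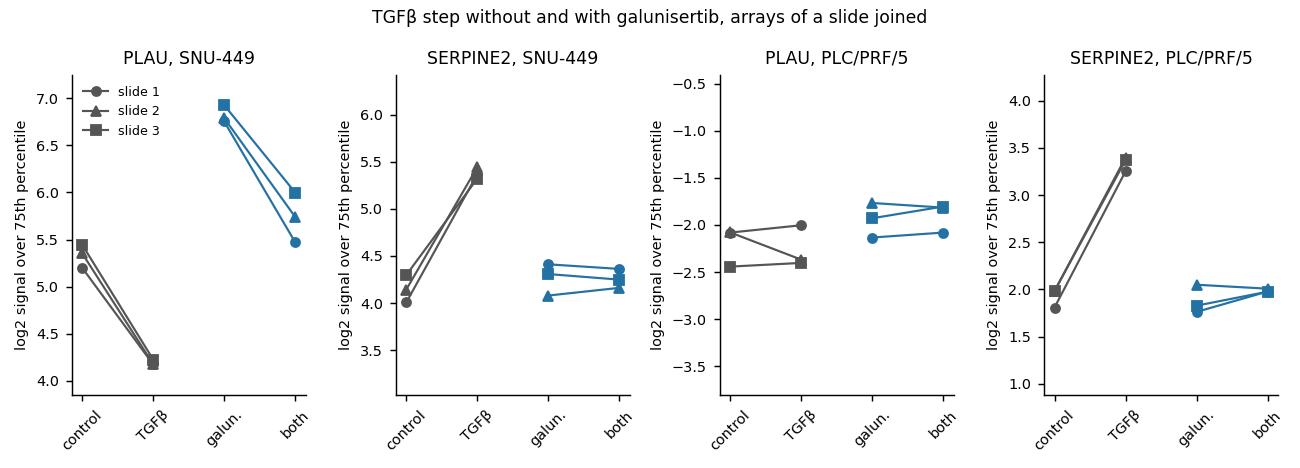
Level of PLAU and SERPINE2 as log2 signal over the 75th percentile (y axis, the same span in each panel) in the 4 groups of each line (x axis), with the 2 arrays of a slide joined across the TGFβ step, in grey without and in blue with galunisertib. The PLAU step in SNU-449 runs down in both settings, while the SERPINE2 step runs up without galunisertib and is flat with it.

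The responses were then compared between the lines, in a fit over all 24 arrays. For TGFβ, *PLAU* differed, its change in SNU-449 being lower than that in PLC/PRF/5 by a log2 difference of -1.08 (standard error 0.20, adjusted p = 0.0013), with 2.29% of genes called. The changes themselves were -1.14 and -0.06. This call was lost without replicate 1 of the PLC/PRF/5 TGFβ group or replicate 3 of its controls, each giving -0.96, and in normexp, at -0.87. The *SERPINE2* rise did not differ detectably, with a difference of -0.19 (95% interval -0.48 to 0.10).

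For galunisertib, 1.54% of genes were called, with *PLAU* and *PLAUR* among them. The *PLAU* change was higher in SNU-449 by 1.23 (standard error 0.20, adjusted p = 0.00079), with changes of 1.49 there and 0.26 in PLC/PRF/5. The *PLAUR* change was lower in SNU-449 by -1.39 (standard error 0.33, adjusted p = 0.014), with changes of -0.05 and 1.35. The *PLAUR* difference was the less stable of these, since it lost its call in 8 of the 12 fits that left out 1 culture, with values from -1.61 to -1.23, and also in normexp, at -0.58, and with only the compared groups in the fit. For *SERPINF2*, the SNU-449 controls were at the floor, so its response could not be compared between the lines. The *PLAT* changes with galunisertib, 0.62 and 0.81, were both short of the fold threshold, and their difference was -0.18 (95% interval -0.52 to 0.16).

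Within each gene, the order of the 8 groups showed how far treatment moved it in relation to the gap between lines. For *PLAU*, all SNU-449 groups lay above all PLC/PRF/5 groups, in the order galunisertib, both, control and TGFβ with no overlap, whereas the 4 PLC/PRF/5 groups overlapped with their neighbours. This holds for the brighter probe, and on the other *PLAU* probe the combined and control groups of SNU-449 overlapped. For *SERPINE2*, the TGFβ group of SNU-449 came first, followed by the other SNU-449 groups, which overlapped. The TGFβ group of PLC/PRF/5, at 3.34 ± 0.08 (SD, n = 3), then lay below all SNU-449 groups and above the other PLC/PRF/5 groups. For *PLAUR* and *PLAT*, the treated PLC/PRF/5 groups with galunisertib, at means of -1.85 to -1.89 and -2.76 to -2.81, stayed below every SNU-449 group. For *SERPINF2*, the PLC/PRF/5 groups with TGFβ and control came first and overlapped, then those with galunisertib and both, which also overlapped, all above the SNU-449 groups.

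Of 24 other genes around plasmin, all on the array, 12 were tested in SNU-449, and in PLC/PRF/5 19 were. In SNU-449, none of the 12 was called in any of the comparisons within the line. With TGFβ, beside 1688 of 16101 genes tested, only 1 of the list had an adjusted p below 0.05. This was *MRC2*, which encodes an endocytic collagen receptor associated with the urokinase receptor and which went from a mean of 4.72 in controls to 5.6 with TGFβ, short of the fold threshold (change 0.88, standard error 0.08, adjusted p = 0.00014). In PLC/PRF/5, 1 of 19 was called with TGFβ, beside 1.1% of all genes tested, again *MRC2*, from a mean of -2.10 to -0.46 (change 1.65, standard error 0.21, adjusted p = 0.00069). The median change of the list was 0.06, beside -0.04 over all genes tested.

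With galunisertib added to TGFβ in PLC/PRF/5, 3 of 19 were called, beside 3.09% of all genes tested, and all 3 fell, all of them among the 4 genes for binding or clearance of urokinase. *MRC2* fell by 2.00 (standard error 0.21, adjusted p = 6.5e-05) to a mean of -2.46. *VTN*, which encodes vitronectin, a matrix ligand of the urokinase receptor, fell by 1.17 (standard error 0.09, adjusted p = 1.1e-05), from 5.26 to 4.09. *LRP1*, which encodes the endocytic receptor that removes complexes of protease and inhibitor, fell by 1.09 (standard error 0.15, adjusted p = 0.00034), from -0.70 to -1.78. The median of the list was 0.01, beside 0.06 over all genes. At an adjusted p below 0.05, 5 genes of the list were higher and 4 lower, beside 6520 of 16684 genes tested in either direction. *VLDLR*, the remaining gene for clearance of urokinase, changed by 0.55 (adjusted p = 0.0013), in the other direction. In SNU-449 the same comparison called none of these 4 genes, and all 4 changes were negative, from -1.44 to -0.21. The widest was that of *LRP1*, whose combined group, at a mean of -3.44, was well above background on only 1 of 3 arrays. The smallest was that of *VTN*, which was dim in that line, with means of -2.45 and -2.65. There 2 genes of the list were lower and none higher at an adjusted p below 0.05, beside 2748 of 16101 genes tested in either direction. No gene of the list was called with galunisertib alone in PLC/PRF/5, nor in the differences of the TGFβ or galunisertib change between lines.

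Between the untreated lines, 15 of the 19 were called, beside 34.3% of all genes tested, 11 in favour of PLC/PRF/5 and 4 in favour of SNU-449. Of the 11, 7 were well above background on no SNU-449 array. These 7 entered the test only through PLC/PRF/5, which fixed their direction. The median difference of the list was 1.60, or 1.59 with these 7 genes at their lower bound, beside 0.06 over all genes. Among those higher in PLC/PRF/5 were *A2M*, which encodes a broad protease inhibitor of plasma, at least 1439-fold, and *F12*, *F11* and *HABP2*, which encode proteases of plasma, at least 822-fold, 39.5-fold and 28.0-fold. *VTN* differed by 7.35. *MRC2* was higher in SNU-449, with a difference of -6.82, as were *PLGRKT*, a plasminogen receptor at the cell surface, with -2.30, *VLDLR* with -1.73 and *S100A10*, a subunit of an annexin-bound plasminogen receptor, with -1.0. The members *PLAU*, *PLAT*, *PLAUR* and *SERPINE2* were likewise higher in SNU-449, and *SERPINF2* in PLC/PRF/5.

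**Figure D4:**
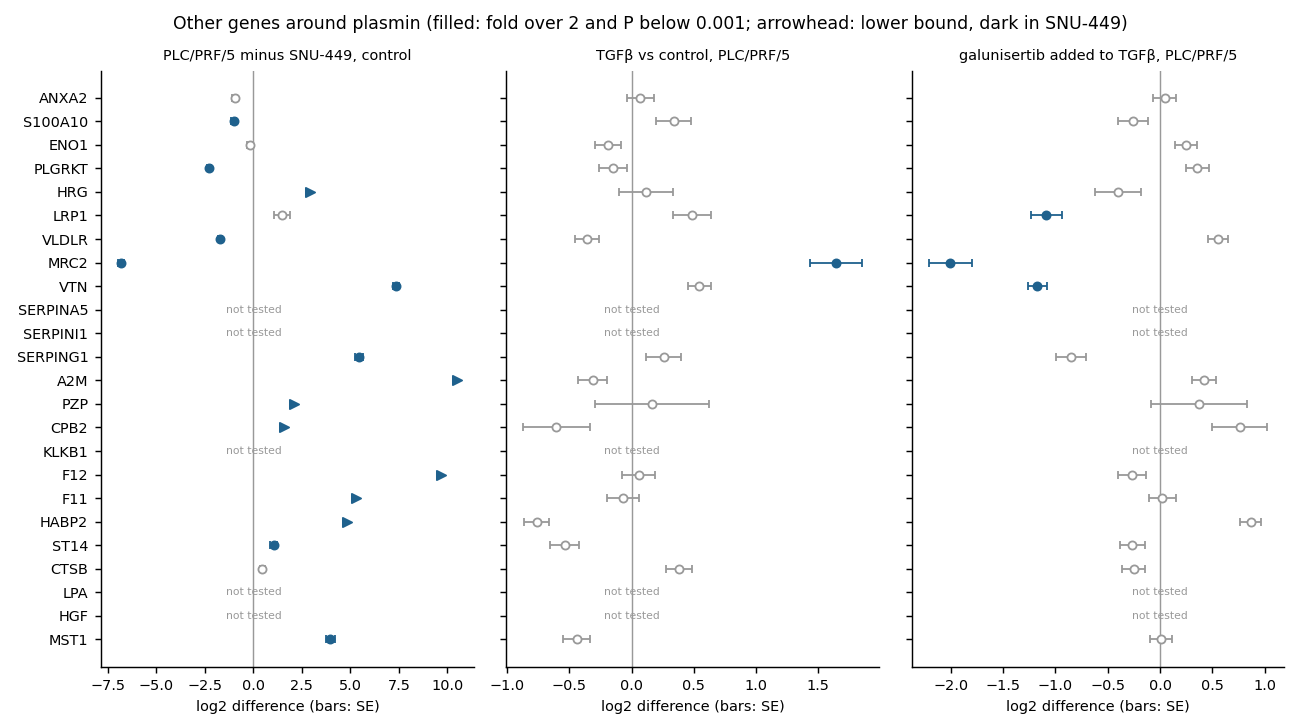
Log2 difference (x axis, standard errors as bars) of 24 other genes around plasmin (y axis) between untreated lines, with TGFβ in PLC/PRF/5, and with galunisertib added to TGFβ in PLC/PRF/5. Filled symbols passed a fold change of 2 and an unadjusted P below 0.001, and arrowheads are lower bounds for genes not above background in SNU-449 controls. MRC2 is the lowest point of the left and right panels and the highest of the middle panel.

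The genes whose levels most resembled a member over the 12 arrays of a line are given as a description, since the arrays of a line form 4 treatment groups. For *PLAU* in SNU-449, out of 13928 genes measured above background on each of the 12 arrays, they were *CCL2* (Pearson r = 0.991), *IFIT2* (r = 0.991) and *LOC388242* (r = 0.990). For *SERPINE2* they were *PLXND1* (r = 0.992), *GXYLT2* (r = 0.988) and *ID1* (r = 0.988) in SNU-449, and *CSPP1* (r = 0.989), *AIFM2* (r = 0.989) and *CLEC16A* (r = 0.988) in PLC/PRF/5. For *SERPINF2* in PLC/PRF/5, among 14837 genes, they were *ESPN* (r = 0.992), *ONECUT1* (r = 0.981), which encodes a hepatocyte transcription factor, and *H2AC1* (r = 0.977). For *PLAT* in SNU-449 they were *HIF1A*, *HELZ2* and *ZBTB42* (r = 0.966 to 0.967). The genes nearest to *PLAUR* in SNU-449, *LINC01002*, *IFRD2* and *SZRD1*, and to *PLAU* in PLC/PRF/5, *PAWR*, *DMRTA1* and *SNORD12*, reached only 0.864 to 0.911 and 0.831 to 0.860, and neither member was called in that line.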

How the data were processed

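The members and gene lists were chosen with earlier results of these data known, and some genes are not reported here. Total RNA of 24 cultures was hybridised one per array, and the deposited files hold Agilent Feature Extraction 10.7.3.1 intensity, background-subtracted per the file headers. A further table, which the authors deposited as log2 values scaled to the 75th percentile and centred per probe, served only as an alternative (Pearson r = 0.999 with the intensities over 19267 probes). Control spots and outlier flags were left out, and 58201 probes remained, of which 31104 were matched through RefSeq accessions. A further 10719 probes took the names of long noncoding RNA loci in LNCipedia, which count among the genes tested. Each array's intensities were scaled to their 75th percentile, held at the floor and taken as log2. A probe was tested when well above background on all 3 arrays of a group, and a gene was represented by its tested probe of highest mean. Models were fitted in limma 3.58.1 (R 4.3.3) over the 12 arrays of a line, or all 24 between lines, after tests on simulated data. Calls need more than a 2-fold change with an unadjusted P below 0.001, which the study used for the untreated lines. For galunisertib, the study names the same thresholds in a figure legend. Its supplementary lists of galunisertib genes name a looser P threshold, which was not used here. Figures were drawn with Python 3.11.15. Replicate numbers are also slide numbers. Deviations of same-numbered arrays correlated at 0.13 to 0.22 (SNU-449) and 0.17 to 0.30 (PLC/PRF/5) for TGFβ against control and at 0.10 to 0.27 for both agents against TGFβ in SNU-449, which pairs them, and not above 0.1 for every pair in the other comparisons. The array number limits the precision. The genes named are the 7 members, the list of 24 other genes where called or where few, marker genes and, for each member well above background on all 12 arrays of a line, the 3 genes of highest correlation. Alternatives changed the scaling, background correction, floor, dim-probe filter, probe choice, samples in the fit, slide block and test (the methods' t-test on the same values, without the random variance model that the study names beside it), used the authors' table, or left out each array in turn. The mean signal was not in the columns used, so normexp took the median signal, with an offset of 50. That offset is above the intensity of *PLAUR* in the PLC/PRF/5 controls, at 19.7, 19.8 and 26.3. Changes of such dim probes shrink in normexp by construction, so a call lost there says little about them.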

Additional observations from a re-analysis of the deposited data

Results flagged for a closer look

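In a limma test of the difference itself, 3 member responses were called as differing between the lines. Over all genes, 2.29% were called for TGFβ and 1.54% for galunisertib. The TGFβ change of *PLAU* was lower in SNU-449 by a log2 difference of -1.08 (adjusted p = 0.0013), and its galunisertib change was higher there by 1.23 (adjusted p = 0.00079). The galunisertib change of *PLAUR* was lower in SNU-449 by -1.39 (adjusted p = 0.014). The *PLAUR* call held in only 13 of 23 alternatives, against 21 of 24 for *PLAU* with TGFβ and 24 of 24 with galunisertib. For *SERPINF2* the same subtraction gave 1.31, but its SNU-449 controls sat at the floor, so no difference in response is shown.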

How the results depend on the processing

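Over 24 member calls and 476 alternatives, 444 kept the call, 32 lost it and none reversed its sign, and 14 calls held under every alternative run. These totals include the *SERPINF2* calls for the untreated lines and for the galunisertib difference, which rest on SNU-449 controls at the floor. They kept the call in 18 of 18 and 21 of 23 alternatives, which does not show that they are sound. With normexp background correction, 1 member was called in place of 2 for TGFβ in SNU-449, 0 in place of 1 for both agents against galunisertib in SNU-449, 0 in place of 2 for galunisertib in PLC/PRF/5, 1 in place of 4 for galunisertib added to TGFβ in PLC/PRF/5, 0 in place of 1 for the TGFβ difference between lines and 1 in place of 3 for the galunisertib difference, a count that includes *SERPINF2*, at the floor in SNU-449. With only probes well above background on every array, which tests fewer probes, 1 of 2, 2 of 4, 2 of 5 and 1 of 3 members were called for galunisertib in PLC/PRF/5, galunisertib added to TGFβ in PLC/PRF/5, the untreated lines and the galunisertib difference. Median scaling and no scaling each called 1 member in place of 2 for galunisertib in PLC/PRF/5. The methods' t-test called 0 in place of 1 for both agents against galunisertib in SNU-449, 1 in place of 2 for galunisertib in PLC/PRF/5 and 2 in place of 4 for galunisertib added to TGFβ there. Leaving out 1 array gave 0 to 1 members for both agents against galunisertib in SNU-449 and 0 to 1 for the TGFβ difference. It gave 1 to 2 for galunisertib in PLC/PRF/5, 3 to 4 for galunisertib added to TGFβ there and 2 to 3 for the galunisertib difference. For that difference, the authors' values and a fit of only the compared groups each called 2 in place of 3. Apart from the filter, the cause was not tested. The replicate block changed no member count in any of the 13 comparisons, with 2, 1, 2, 1 and 1 members in SNU-449, then 1, 2, 4, 0 and 1 in PLC/PRF/5, then 5, 1 and 3 between lines. A floor of double the height was added after seeing the data, and it called 3 members in place of 4 for galunisertib added to TGFβ in PLC/PRF/5.

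Counts over all genes moved more. In SNU-449, normexp gave 208 genes in place of 375 for TGFβ, 121 in place of 184 for galunisertib, 376 in place of 614 for galunisertib added to TGFβ and 96 in place of 219 for the interaction, and the methods' t-test gave 68 for galunisertib and 383 for galunisertib added to TGFβ. For both agents against galunisertib in SNU-449, 113 genes became 71 with the stricter filter, 53 with only the groups compared and 14 in the t-test. In PLC/PRF/5, normexp gave 99 in place of 184 for TGFβ, 15 in place of 57 for galunisertib, 220 in place of 516 for galunisertib added to TGFβ and 89 in place of 199 for the interaction, and the t-test gave 105, 34 and 324 for the first 3. Without scaling, TGFβ gave 331 genes and the interaction 100. For TGFβ added to galunisertib in PLC/PRF/5, 49 (34 higher and 15 lower) became 89 higher and 18 lower with median scaling, 145 without scaling, 12 in the t-test and 46 to 77 on leaving out 1 array. The stricter filter gave 3724 in place of 6149 between untreated lines and 178 in place of 410 and 137 in place of 276 for the TGFβ and galunisertib differences, where normexp gave 197 and 155. After Benjamini-Hochberg adjustment the t-test left 1487, 87, 2716 and 0 genes in SNU-449, and for PLC/PRF/5 1615, 160, 5465 and 0, in the order TGFβ, galunisertib, galunisertib added to TGFβ and TGFβ added to galunisertib. Median scaling moved the median difference between untreated lines from 0.06 to -0.28 (2171 higher and 4496 lower in PLC/PRF/5, against 3016 and 3133), that of galunisertib added to TGFβ in PLC/PRF/5 from 0.06 to 0.23 (436 and 177, against 222 and 294) and that in SNU-449 from 0.01 to -0.15 (219 and 470, against 286 and 328).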
